A study of Homo sapiens with 4 samples.

Results

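The TCOF1 knockout was compared with the control guide under the same drug. Of the 4 RNA-seq libraries of the series, 2 enter this comparison: gRNA2+dox, from MDA-MB-468 mammospheres with the TCOF1 guide gRNA2 and doxycycline, and CTL+dox, from mammospheres with a control guide and doxycycline. MDA-MB-468 is an established basal-like triple-negative breast cancer line, and mammospheres are clusters that such cells form when they grow without attachment, a culture used to enrich for stem-like cells. All cells carried Cas9, and doxycycline switched on the guide. The labels give the genotype of gRNA2+dox as a TCOF1 knockout and that of CTL+dox as wild type. They also give wild type for CTL, the control guide without the drug, and for gRNA2, the TCOF1 guide without the drug. Because both libraries compared had doxycycline, the drug is shared, but the cells are different pools, each made by its own infection with its own guide. The cultures were pools, not clones, in which edited and unedited copies of TCOF1 can be mixed. Each library joined several culture plates and no condition was repeated, so 1 library stands on each side, no p-value is given, and all intervals cover counting error only. In bulk RNA, fewer cells of one kind and less RNA per cell cannot be told apart.

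TCOF1 encodes treacle, a phosphoprotein of the nucleolus that binds RNA polymerase I and its partner UBTF and is needed for the transcription and processing of ribosomal RNA. Loss of 1 copy causes Treacher Collins syndrome, in which neural crest cells are lost. In other cell types, a shortage of ribosomal RNA is known to free ribosomal proteins that bind MDM2 and so raise p53 targets. MDA-MB-468 carries a mutant p53.

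The guide is shown because it defines the knockout. Its target on the minus strand of hg19, the build of the study's guide design, lies in a coding exon of TCOF1 by the lifted GENCODE annotation, at chr5:149754959-149754981, and the capitals mark the protospacer-adjacent motif that Cas9 needs.
TCOF1 gRNA2 target: gggccggcgcctttccccaaGGG

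Counts on genes were 22168624 in gRNA2+dox and 22467410 in CTL+dox, beside 26322847 in gRNA2 and 19960644 in CTL. Reads that map to several places made up 3.39% of gRNA2+dox and 4.02% of CTL+dox, and reads outside annotated genes 12.5% and 10.6%. Markers of basal-like cells were present in full: all 10 were detected in every library, and their summed level was 16375 to 17904 CPM (counts scaled to library size). The 16 white blood cell markers summed to 110 to 129 CPM, of which the lysosomal protein CD68 had 1905 to 3036 reads, while PTPRC, the pan-leukocyte marker, had 1 or 2 reads in each library. Fibroblast and endothelial markers summed to 31.6 to 38.1 CPM and hormone receptor markers to 13.0 to 15.1 CPM.

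TCOF1 had 437 reads in gRNA2+dox, 754 in CTL+dox, 1019 in CTL and 1318 in gRNA2. It was lowest in gRNA2+dox, and the control cells with the drug were the next lowest. The log2 fold change from CTL+dox to gRNA2+dox was -0.74, with an exact 95% interval of -0.92 to -0.57. Transcripts that carry small insertions or deletions can still be counted, so the reads on TCOF1 do not give the share of edited copies. The 18 tested genes of TCOF1 and the RNA polymerase I machinery had a median log2 fold change of 0.06. The median was 0.09 over 8 polymerase I subunits and 0.04 over 8 initiation factors. NOLC1, the nucleolar relative of treacle, had 1829 reads in CTL+dox and 2185 in gRNA2+dox, a log2 fold change of 0.30 (0.21 to 0.39). UBTF, which opens ribosomal DNA for polymerase I, had 1047 and 1014 reads, a log2 fold change of 0.00. None of these genes passed the cutoffs used here, which are a log2 fold change beyond 1 in size and a bound beyond 0.5. The bound is the end of the counting-error range nearest to 0, taken at the 1% or 99% quantile.

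Of the 15204 genes tested, 149 were lower past both cutoffs in gRNA2+dox and 69 were higher, which is 0.980% and 0.454% of them. The log2 fold changes of the lower genes ran from -5.11 to -1.002 with a median of -1.93. Those of the higher genes ran from 1.01 to 5.23 with a median of 1.84. Many lower genes were rare transcripts: the median was 22 reads in gRNA2+dox and 77 in CTL+dox, and 33 of the 149 had no more than 3 reads in gRNA2+dox. Among the higher genes, 14 had no more than 3 reads in CTL+dox. If cultures varied with a coefficient of variation of 0.2, which these data cannot measure, 50 lower and 20 higher genes would still pass. The plot of level against fold change shows the called genes at both margins and TCOF1 inside the cutoffs.

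**Figure D1:**
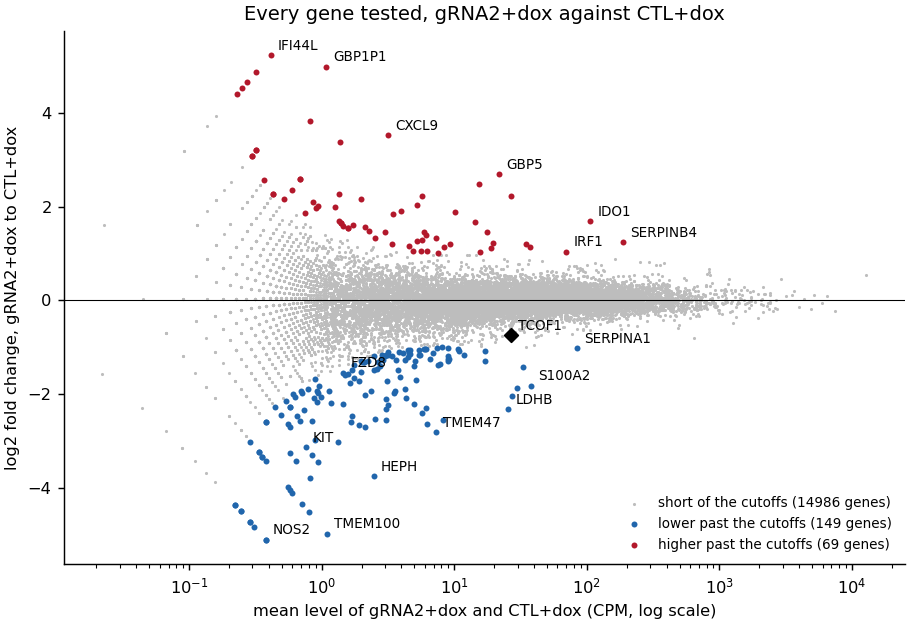
Every gene tested, with the mean level of gRNA2+dox and CTL+dox in CPM on a log axis and the log2 fold change of gRNA2+dox to CTL+dox. Blue points are the 149 genes lower past the cutoffs, red points the 69 higher, grey points the rest, and the black diamond is TCOF1 at -0.74.

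The lower genes with the largest bounds came from many functions. TMEM100, a membrane protein of the endothelial BMP pathway, had 48 reads in CTL+dox and 1 in gRNA2+dox, with 36 in CTL and 25 in gRNA2. The log2 fold change of TMEM100 was -4.98, with an interval of -10.87 to -2.99 that shows how little 1 read fixes its size. HEPH, the copper-dependent ferroxidase hephaestin that helps to export iron, had 104 reads in CTL+dox and 94 in CTL, against 22 in gRNA2 and 7 in gRNA2+dox. For HEPH the log2 fold change was -3.76 (-5.20 to -2.76), and the gRNA2 pool was already low without the drug.

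The better counted genes of this group had narrower intervals. TMEM47, a protein of cell junctions, had 287 reads in CTL+dox, 233 in CTL, 107 in gRNA2 and 39 in gRNA2+dox, a log2 fold change of -2.82 (-3.36 to -2.35). RNF128, a ubiquitin ligase also known as GRAIL, had 240, 195, 76 and 37 reads in the same order and a log2 fold change of -2.64 (-3.20 to -2.15). For PRSS12, the serine protease neurotrypsin, the reads were 317, 250, 132 and 52, a log2 fold change of -2.55 (-3.02 to -2.14). In all 3 genes the libraries stood in the same order, with CTL+dox highest, CTL next, then gRNA2, and gRNA2+dox lowest.

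LDHB, the lactate dehydrogenase subunit that favours the conversion of lactate to pyruvate, had 957 reads in CTL+dox, 699 in CTL, 419 in gRNA2 and 185 in gRNA2+dox. A log2 fold change of -2.32 (-2.56 to -2.10) means a level 5.01-fold lower. The separate list of 37 tested hypoxia and glycolysis genes, which does not hold LDHB, had a median of -0.01. Of the 37, 1 was lower past the cutoffs, beside 0.980% of all genes tested. It was ANGPTL4, a secreted inhibitor of lipoprotein lipase with 28 reads in CTL+dox and 7 in gRNA2+dox. ELF5, the transcription factor that specifies luminal and milk-secreting cells of the breast, had 216 reads in CTL+dox, 151 in CTL, 59 in gRNA2 and 39 in gRNA2+dox. The log2 fold change of ELF5 was -2.41 (-2.96 to -1.93). Here the large step was between the pools, and the gRNA2 libraries with and without the drug were close.

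Other rare transcripts with large bounds were HMGN5, a nucleosome-binding protein, with 35 reads in CTL+dox and 1 in gRNA2+dox, and PPP4R4, a regulatory subunit of protein phosphatase 4, with 31 reads and 1. GPR55, a receptor for lysophosphatidylinositol, had 35 reads against 2, KLHL34 had 26 against 1, and COL8A1, a short-chain collagen, had 39 against 3. These 5 genes are single-digit counts in the knockout, and the intervals of their log2 fold changes reach from -10.43 to -2.00.

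The lower genes with the highest CPM had smaller folds. SERPINA1, the protease inhibitor alpha-1 antitrypsin, had 2992 reads in CTL and 2522 in CTL+dox, against 2162 in gRNA2 and 1202 in gRNA2+dox, a log2 fold change of -1.03 (-1.13 to -0.93). S100A2, a calcium-binding protein of basal epithelium, had 1340 reads in CTL+dox and 367 in gRNA2+dox, a log2 fold change of -1.82 (-2.00 to -1.66). LGALS1, the sugar-binding lectin galectin-1, had 1059 and 281 reads, a log2 fold change of -1.87 (-2.07 to -1.68). All 3 were lower in both gRNA2 libraries than in both control libraries. Of 4 others, all were also lower in both gRNA2 libraries. FGFBP2, a secreted protein, had 994 and 235 reads (-2.04, interval -2.25 to -1.83). CLDN10, a claudin of tight junctions, had 1076 and 392 reads (-1.41, -1.58 to -1.25). GJB2, the gap junction protein connexin 26, had 548 and 218 reads (-1.28, -1.52 to -1.06), and MAOA, the enzyme that breaks down serotonin and noradrenaline, 519 and 237 reads (-1.09, -1.32 to -0.86). Each of these was also lower in gRNA2 than in CTL, by log2 ratios of -1.17 to -0.58 without the drug.

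KIT, FZD8 and NOS2 have known roles in stem cells and were followed up by the study, and each was a rare transcript in these libraries. KIT, the receptor of stem cell factor, had 27 reads in CTL and 31 in CTL+dox, against 20 in gRNA2 and 3 in gRNA2+dox. For KIT the log2 fold change was -3.13 (-5.68 to -1.65), and its 3 reads in gRNA2+dox equal the floor used here. FZD8, a frizzled receptor for WNT ligands, had 64, 49, 37 and 16 reads, a log2 fold change of -1.54 (-2.49 to -0.73). Its interval excludes 0 but reaches a change of less than 2-fold. NOS2, the inducible nitric oxide synthase, had 10, 17, 9 and 0 reads, and with the floor of 3 counts in place of 0 its level was at least 5.50-fold lower than in CTL+dox. That floor takes the 17 reads without error, and with their counting error the interval of the log2 fold change ended at -2.00. KIT was the only one of 8 tested members of the KIT receptor family and its ligands past the cutoffs. Of all genes tested, 0.980% were lower past them. KITLG, the ligand of KIT, had 1209 reads in CTL+dox and 1079 in gRNA2+dox (-0.12), and FLT3, a close relative, 33 and 11 (-1.50, -2.67 to -0.52). PDGFRA, another relative, went the other way with 47 and 88 reads (0.94, 0.42 to 1.49), short of the cutoffs.

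Over all 42 tested receptor kinases, ligands and their early response genes the median was 0.00. EGFR, which this line expresses very strongly, had 54707 reads in CTL and 55292 in CTL+dox, against 84853 in gRNA2 and 73514 in gRNA2+dox, a log2 fold change of 0.45 (0.44 to 0.47). After scaling, its level was 3367 CPM in gRNA2+dox and 3222 CPM in gRNA2, above 2458 CPM in CTL+dox and 2704 CPM in CTL. EREG, the EGFR ligand epiregulin, had 577 reads in CTL+dox and 328 in gRNA2+dox (-0.77, -0.97 to -0.57). The 23 ERK feedback and early genes, transcripts that respond to signals from such receptors, had a median of 0.11 and no call.

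Among 65 tested genes of the WNT, Notch, BMP and TGF-beta pathways, 4 were lower past the cutoffs, beside 0.980% of all genes tested, none higher, and the median was -0.01. They included FZD8, WNT5B, a ligand of non-canonical WNT signalling, with 207 reads in CTL+dox and 84 in gRNA2+dox (-1.25, -1.64 to -0.89), and SP5, a target of canonical WNT signalling, with 14 and 0 reads. The 32 tested WNT receptors and targets had a median of -0.11. Of the 32, 13 had an interval below 0, beside 19.6% of all genes tested, and 4 above, beside 20.6%. The other genes of the list named next were short of the cutoffs. AXIN2, a feedback target of canonical WNT signalling, had 32 and 30 reads. FZD7 had 1657 and 993 (-0.70, -0.81 to -0.58) and LGR6, an R-spondin receptor, 326 and 185 (-0.77, -1.04 to -0.51). The tested genes of the Notch part of the list had a median of 0.03, and HES6, a member of the list, stood at 733 and 413 reads (-0.78, -0.96 to -0.61). INHBA, the activin A subunit, was the list member furthest above 0 by its bound, with 1437 and 2268 reads (0.70, 0.61 to 0.80).

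Of 19 tested stem cell markers and regulators, 2 passed as lower, beside 0.980% of all genes tested, and none as higher. The 2 were NOS2 and TEX19, a germ cell and pluripotency gene with 15 reads in CTL+dox and 1 in gRNA2+dox. PROM1, which encodes the surface marker CD133, had 1087 reads in CTL and 1182 in CTL+dox, against 1015 in gRNA2 and 671 in gRNA2+dox, a log2 fold change of -0.77 (-0.91 to -0.64). After scaling to 30.7 CPM in gRNA2+dox and 38.5 CPM in gRNA2, both were below the controls, at 52.5 CPM in CTL+dox and 53.7 CPM in CTL. ALDH1A1, an aldehyde dehydrogenase used to mark breast stem-like cells, had 2824, 3781, 2653 and 2740 reads, a log2 fold change of -0.42 (-0.49 to -0.35). For ALDH1A1 the highest library was CTL+dox, at 168 CPM, and the lowest was gRNA2, at 101 CPM, with gRNA2+dox between them at 125 CPM. The other tested markers had log2 fold changes nearer to 0. ALDH1A3, the main aldehyde dehydrogenase of many breast lines, had 22258 reads in CTL+dox and 19703 in gRNA2+dox (-0.13). CD44, another surface marker, had 36276 and 39687 (0.17, 0.15 to 0.19). SOX9, a regulator of mammary stem cells, had 22793 and 26302 (0.25, 0.22 to 0.28). The transcripts of the pluripotency factors SOX2, NANOG and LIN28A had at most 1 read in any library.

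Of genes of epithelial state 1 of 26 tested was lower past the cutoffs, and of mesenchymal state 2 of 17. These counts stand beside 0.980% of all genes tested, and no member was higher past the cutoffs. The 17 tested mesenchymal genes had a median of 0.20. Of these, 7 had an interval above 0, beside 20.6% of all genes tested, and 4 below, beside 19.6%. The 26 tested keratin and epithelial genes had a median of 0.01 with ELF5 as the only call, and the basal keratin KRT14 had 33319 reads in CTL+dox and 25465 in gRNA2+dox (-0.34, -0.37 to -0.32). TWIST1, an inducer of the mesenchymal state, had 17 reads in CTL and 27 in CTL+dox, against 4 in gRNA2 and 2 in gRNA2+dox (-3.42, -6.83 to -1.72). CDH2, the adhesion protein N-cadherin, had 15, 32, 18 and 7 reads (-2.07, -3.57 to -0.94). TWIST1 separated the pools with and without the drug, whereas for CDH2 the libraries without the drug, at 0.741 and 0.684 CPM, were close. TNC, the matrix protein tenascin-C, had 6280 reads in CTL+dox and 10551 in gRNA2+dox (0.79, 0.75 to 0.84), and VIM, the mesenchymal filament vimentin, 922 and 560 (-0.68, -0.83 to -0.52). In the S100 and differentiation list, 2 of 27 tested genes were lower past the cutoffs, beside 0.980% of all genes tested. They were S100A2 and WFDC2, a secreted protease inhibitor with 183 and 86 reads. Of the 27, 16 had an interval below 0, beside 19.6% of all genes tested, and 3 above, beside 20.6%. The secreted defence proteins SLPI and PI3 had log2 fold changes of -0.49 (-0.51 to -0.46) and -0.37 (-0.39 to -0.35).

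Several further genes among the 149 were chosen after their values were seen, because they encode secreted or receptor proteins. SOSTDC1, a secreted antagonist of BMP and WNT, had 175 reads in CTL and 230 in CTL+dox, against 118 in gRNA2 and 45 in gRNA2+dox (-2.30, -2.81 to -1.84). IGFBP5, which binds insulin-like growth factors, had 104, 158, 146 and 36 reads (-2.08, -2.66 to -1.56). IGFBP5 was low in gRNA2+dox alone, whereas SOSTDC1 was also lower in gRNA2. The matrix protease ADAMTS1 had 80, 118, 47 and 19 reads (-2.56, -3.37 to -1.89) and the heparan sulphate proteoglycan SDC2 57, 98, 40 and 16 (-2.54, -3.43 to -1.80). SMO, the signal transducer of the hedgehog pathway, had 126 reads in CTL+dox and 56 in gRNA2+dox (-1.12, -1.61 to -0.66). FLT1, a receptor of vascular endothelial growth factor, had 66 and 19 (-1.73, -2.57 to -0.999). MMP7, the protease matrilysin, had 273 and 130 (-1.02, -1.34 to -0.72), and it was as low in gRNA2 as in gRNA2+dox.

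Genes of mitosis were lower as a group by a small amount. The median log2 fold change of 61 tested members was -0.49, and 44 of them had an interval below 0, beside 19.6% of all genes tested, while 1 had an interval above 0, beside 20.6%. Of the 61, 2 were lower past the cutoffs, beside 0.980% of all genes tested, and both act on the spindle. DLGAP5, which stabilizes spindle microtubules, had 134 reads in CTL and 161 in CTL+dox, against 157 in gRNA2 and 63 in gRNA2+dox (-1.30, -1.75 to -0.88), and KIF20A, a kinesin of cytokinesis, had 238, 324, 268 and 152 (-1.05, -1.34 to -0.77). Other members that act in cell division had intervals below 0 and were short of the cutoffs. BIRC5, which encodes survivin, had 471 reads in CTL+dox and 238 in gRNA2+dox (-0.94, -1.17 to -0.71). CCNB1, the mitotic cyclin B1, had 445 and 237 (-0.86, -1.10 to -0.64) and its kinase CDK1 752 and 430 (-0.76, -0.94 to -0.59). TOP2A, which untangles chromosomes, had 543 and 306 reads (-0.78, -0.99 to -0.58). MKI67, the source of the Ki-67 proliferation antigen, did not follow, with 521 and 527 reads, and CENPE, a kinetochore motor, had 58 and 77.

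DNA replication genes showed a smaller shift. Their 40 tested members had a median of -0.15 and no gene past the cutoffs. Of the 40, 19 had an interval below 0, beside 19.6% of all genes tested, and none above, beside 20.6%. RRM2, the ribonucleotide reductase subunit that limits nucleotide supply in S phase, had 2163 reads in CTL+dox and 1277 in gRNA2+dox (-0.72, -0.82 to -0.62). The licensing and helicase genes had a median of -0.33. Of the mitosis genes, 41 of 61 were lower in both gRNA2 libraries than in both control libraries, beside 23.2% of all genes tested. Of the 61, 50 were lowest in gRNA2+dox, beside 3910 of all 15204 genes tested. Without the drug, mitosis genes had a median log2 ratio, gRNA2 to CTL, of -0.14 and replication genes one of -0.05.

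Among the 69 higher genes were 5 of 7 tested guanylate-binding proteins, 6 of 35 antiviral effectors and 2 of 22 genes of interferon signalling. These stand beside 0.454% of all genes tested, and the lists were chosen with earlier results of these data known. Interferons signal through JAK kinases to STAT transcription factors, which enter the nucleus and switch on genes for viral defence, antigen display and T cell attraction. Interferon gamma and NF-kappa-B act together on many of them, the guanylate-binding proteins, CXCL9 to CXCL11 and IDO1 among them.

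Guanylate-binding proteins, GTPases that attack vacuoles of intracellular pathogens, had the highest median of the lists, 2.16 over 7 tested members. Of the 7, 5 were higher past the cutoffs, beside 0.454% of all genes tested. GBP5 had 152 reads in CTL and 132 in CTL+dox, against 306 in gRNA2 and 829 in gRNA2+dox, a log2 fold change of 2.69 (2.43 to 2.97). GBP4 had 119, 105, 197 and 573 reads (2.49, 2.19 to 2.81). GBP1 had 184, 210, 356 and 961 reads (2.23, 2.02 to 2.46). In each the libraries of the gRNA2 pool were above both controls, and gRNA2+dox was far above gRNA2. The others past the cutoffs were GBP7, with 16 reads in CTL+dox and 71 in gRNA2+dox (2.16, 1.40 to 3.08), and GBP2, with 479 and 1066 (1.20, 1.04 to 1.36). GBP3 had 929 and 1310 reads (0.54, 0.42 to 0.66) and GBP6 10 and 11. The pseudogene GBP1P1, in the same gene cluster, had 1 read in CTL+dox and 46 in gRNA2+dox (4.99, 3.02 to 10.90). Only reads that map to 1 place were counted, so the division of reads between such near copies is uncertain.

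All 3 ligands of CXCR3, the receptor on activated T cells, were higher past the cutoffs, beside 0.454% of all genes tested. CXCL9 had 28 reads in CTL and 11 in CTL+dox, against 31 in gRNA2 and 128 in gRNA2+dox (3.52, 2.70 to 4.62). CXCL10 had 24, 45, 27 and 206 reads (2.23, 1.77 to 2.74) and CXCL11 28, 32, 43 and 79 (1.33, 0.74 to 1.99). After scaling, gRNA2 without the drug lay within the range of the controls for CXCL9 and just below it for CXCL10, so gRNA2+dox alone was high. Of the other chemokines for lymphocytes and monocytes, CCL2, which attracts monocytes, had 66, 76, 85 and 195 reads (1.40, 1.01 to 1.80). Its relative CCL7 had 0, 1, 2 and 12 (3.09, 0.87 to 9.05). CX3CL1 and CXCL17, with 1480 to 2022 and 1581 to 2141 reads over the libraries, had log2 fold changes of 0.03 and 0.00. The list of 13 tested chemokines had a median of 0.68, against 0.36 when only genes with at least 50 counts in a library were kept. Of the 13, 7 had an interval above 0, beside 20.6% of all genes tested, and none below, beside 19.6%.

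**Figure D2:**
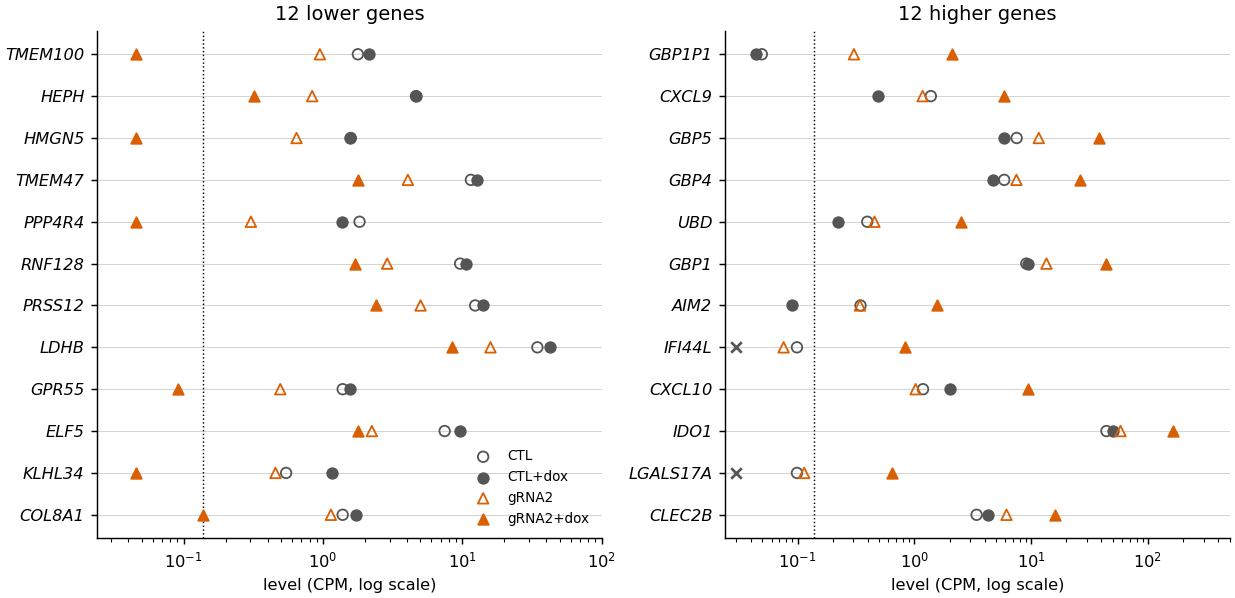
Level in CPM on a log axis in each of the 4 libraries for the 12 lower genes (left) and the 12 higher genes (right) with the largest bounds. Grey circles are the control guide and orange triangles the TCOF1 guide, open without and filled with doxycycline. The dotted line is the level of 3 reads in gRNA2+dox, and a cross at the left edge marks 0 reads. The filled triangle is the lowest point for all 12 lower genes and the highest for all 12 higher genes.

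IDO1, the enzyme that starts the breakdown of tryptophan to kynurenine, was among the 8 higher genes with the highest mean CPM. It had 893 reads in CTL and 1127 in CTL+dox, against 1533 in gRNA2 and 3548 in gRNA2+dox, a log2 fold change of 1.70 (1.60 to 1.80). Of the other measured enzymes of the pathway, KYNU had 2390 and 2299 reads (-0.01) and KMO 210 and 257 (0.33, 0.07 to 0.60), both short of the cutoffs. WARS, the tryptophanyl-tRNA synthetase that interferon gamma induces, had 14671 and 20982 reads (0.56, 0.53 to 0.59). Targets of AHR, the receptor that kynurenine can activate, had a median of 0.13 with AHR itself, and CYP1A1 had 2982 and 2689 reads (-0.11). SERPINB4, a protease inhibitor of squamous epithelium, had 1873, 2515, 3417 and 5794 reads (1.25, 1.18 to 1.32), but its near copy SERPINB3 makes the split of reads uncertain. SERPING1, the C1 inhibitor of the complement system, had 504, 524, 946 and 1125 reads (1.14, 0.99 to 1.30).

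Antiviral effector genes were higher in part. Of 35 tested, 22 had an interval above 0, beside 20.6% of all genes tested, and 4 below, beside 19.6%. The list median was 0.37, and 6 were higher past the cutoffs, beside 0.454% of all genes. IFIT3, which binds foreign RNA in a complex with IFIT1, had 118 reads in CTL and 154 in CTL+dox, against 191 in gRNA2 and 479 in gRNA2+dox (1.68, 1.42 to 1.95). IFIT2 had 46, 46, 74 and 185 (2.04, 1.58 to 2.55), and IFIT1 had 37, 27, 47 and 74 (1.48, 0.84 to 2.19). The 3 IFIT genes had the most reads in gRNA2+dox. OAS2, which makes the activator of RNase L, had 104, 93, 187 and 229 (1.34, 0.99 to 1.71). IFI44L had 0 reads in CTL+dox and 18 in gRNA2+dox, a level at least 6.18-fold higher against the same floor, with the 18 reads taken without error. With their counting error the interval of its log2 fold change ran from 2.18 up. XAF1, a pro-apoptotic partner of XIAP, had 15 and 47 reads (1.66, 0.83 to 2.64). Members with more reads had smaller values, and MX1 had 1512 and 1908 reads (0.38), ISG15 844 and 1000 (0.29), RSAD2 950 and 910 (-0.02) and OAS1 909 and 783 (-0.17). Of 6 listed interferon genes only IFNL1, a lambda interferon, passed the filter, with 5 and 8 reads, and IFNB1 had 1 to 3 reads in every library.

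In interferon signalling, receptors and kinases had a median of -0.06, whereas the STAT and IRF factors and feedback genes had a median of 0.49. Of these 12, 9 had an interval above 0, beside 20.6% of all genes tested, and none below, beside 19.6%. IRF1, a transcription factor induced by interferon, had 1026 reads in CTL and 1030 in CTL+dox, against 1597 in gRNA2 and 2059 in gRNA2+dox (1.04, 0.93 to 1.15). BATF2, its partner in interferon gamma responses, had 186, 210, 281 and 564 (1.47, 1.24 to 1.70). STAT2, which pairs with IRF9, had 533 reads in CTL+dox and 709 in gRNA2+dox (0.45, 0.29 to 0.62), short of the cutoffs. The feedback inhibitor SOCS3 had 1871 and 3179 reads (0.81, 0.73 to 0.89). Every one of these genes was highest in gRNA2+dox.

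Antigen presentation showed a broad shift of smaller size. Of 29 tested genes 20 had an interval above 0, beside 20.6% of all genes tested, and none below, beside 19.6%. The median was 0.47. HLA-B, a class I molecule that shows peptides to T cells, had 14524 reads in CTL+dox and 22377 in gRNA2+dox (0.67, 0.64 to 0.70), and TAP1, which pumps peptides to it, had 2591 and 4634 (0.88, 0.81 to 0.95). The immunoproteasome subunits PSMB9 and PSMB10 both had a log2 fold change of 0.96. B2M, the shared class I light chain, had 45798 and 44716 reads, a log2 fold change of 0.01. Of the 29, 2 were higher past the cutoffs, beside 0.454% of all genes tested. Both belong to class II: its master regulator CIITA, with 63 and 138 reads (1.17, 0.73 to 1.63), and the invariant chain CD74, with 265 and 599 (1.22, 1.01 to 1.43). CD74 had 225 reads in CTL and 479 in gRNA2, so the gRNA2 pool was higher without the drug too. In 18 of the 29 genes both gRNA2 libraries were above both controls, beside 22.2% of all genes tested. Of the 29, 22 were highest in gRNA2+dox, beside 3769 of all 15204 genes tested. The summed level of the 16 white blood cell markers beside these lists was 122 CPM in CTL+dox and 125 CPM in gRNA2+dox.

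**Figure D3:**
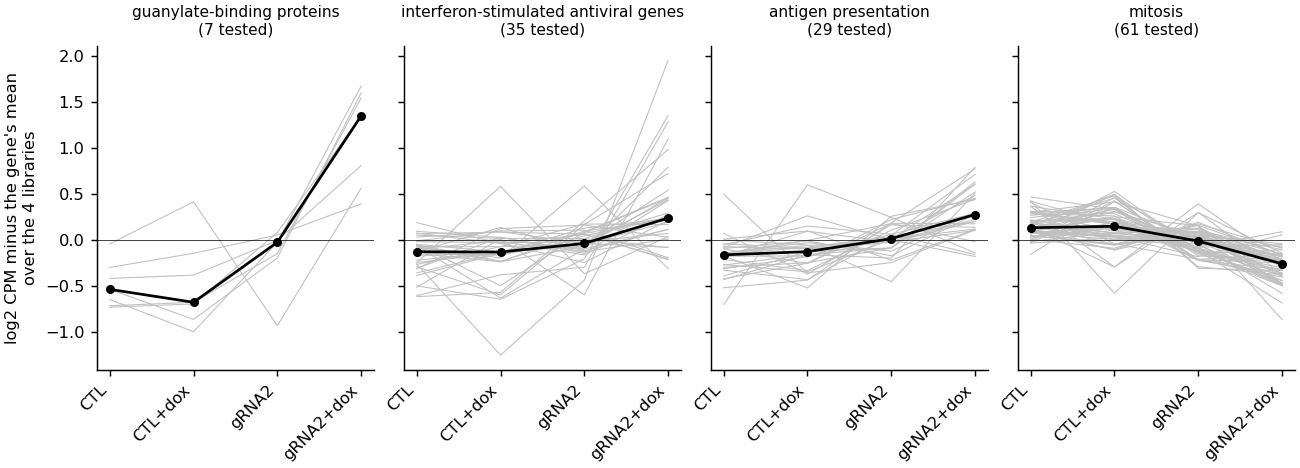
Levels of 4 gene lists in the 4 libraries as log2 of CPM with 0.1 added, less each gene's mean over the libraries. Each grey line joins the values of 1 tested gene and the black line joins the list medians. For guanylate-binding proteins the medians are -0.54, -0.68, -0.03 and 1.35 in CTL, CTL+dox, gRNA2 and gRNA2+dox, and for mitosis 0.13, 0.15, -0.01 and -0.26.

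Cytokines and NF-kappa-B genes were mixed. CXCL5, a ligand of the neutrophil receptor CXCR2, had 51 reads in CTL and 37 in CTL+dox, against 32 in gRNA2 and 136 in gRNA2+dox (1.91, 1.39 to 2.49), and CXCL2 had 92, 74, 127 and 177 (1.30, 0.90 to 1.71). CXCL8, another ligand of that receptor, had 15515 in CTL+dox and 14515 in gRNA2+dox (-0.05). IL24, a cytokine of the IL-10 family, had 34 and 119 (1.84, 1.29 to 2.45). IL32 had 32 reads in CTL and 16 in CTL+dox, against 38 in gRNA2 and 48 in gRNA2+dox (1.60, 0.79 to 2.54). The level of IL32 was lowest in CTL+dox, at 0.711 CPM, beside 1.58 CPM in CTL and 1.44 CPM in gRNA2. IL18, an inflammasome-processed cytokine, had 2256 and 1675 reads (-0.39, -0.48 to -0.29). UBD, a ubiquitin-like protein induced by TNF and interferon gamma, had 8 reads in CTL and 5 in CTL+dox, against 12 in gRNA2 and 55 in gRNA2+dox (3.38, 2.19 to 5.18). UBD was the only call of 19 NF-kappa-B genes, beside 0.454% of all genes tested that were higher past the cutoffs. The median of the 19 was 0.22. Of the 19, 14 had an interval above 0, beside 20.6% of all genes tested, and none below, beside 19.6%. SOD2, the mitochondrial superoxide dismutase, had 4808 and 8285 reads (0.83, 0.78 to 0.88), while NFKBIA and TNFAIP3, the classical feedback inhibitors, had log2 fold changes of 0.22 and 0.12.

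Among the other higher genes, AIM2, a sensor of DNA in the cytosol, had 7 reads in CTL and 2 in CTL+dox, against 9 in gRNA2 and 34 in gRNA2+dox (3.83, 2.17 to 7.23). CTL+dox was the lowest of the 4, so this ratio is larger than that to any other library. CLEC2B, a ligand of the natural killer receptor NKp80, had 69, 97, 162 and 351 reads (1.89, 1.57 to 2.24). LGALS17A, listed beside the galectin genes, had 0 reads in CTL+dox and 14 in gRNA2+dox. That is at least 4.81-fold higher against the floor, with the 14 reads taken without error. With their counting error the interval of its log2 fold change ran from 1.77 up. Genes chosen after their values were seen are IFI16, another DNA sensor, with 18 and 52 reads (1.55, 0.78 to 2.43), and APOL3, an apolipoprotein L gene, with 126 and 282 (1.20, 0.90 to 1.52). C1R, a protease of the complement system, had 71 and 190 (1.46, 1.06 to 1.88).

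The promoters of the higher genes were searched for binding motifs of these factors, since their genes were higher together. In RefSeq's promoter table for GRCh38.p14, which covers 250 bases before to 50 bases after each start, 44 of the 69 higher genes and 106 of the 149 lower genes were matched. The interferon response element GAAANNGAAA, on either strand, was found in 10 of 44 higher promoters (22.7%) and 2 of 106 lower ones (1.89%). It was found in 2.78% of the promoters of the tested genes and 3.65% of all 27305 promoters. The STAT site TTCNNNGAA was also found in 10 of the 44 (22.7%), in 6.60% of the lower ones, 6.52% of those of tested genes and 7.88% of all. None of the 44 held both motifs. The higher genes with the STAT site were CXCL5, LRRC39, IRF1, TRIM40, MUC4, TRIM15, ATP10A, CCL7, CXCL11 and MIR100HG. A match describes letters and is not a measured site. Promoter stretches around the element are given for 6 interferon targets described above, with the element in capitals on the strand of the gene, where GAAA repeats read as TTTC if the element lies on the other strand.
CXCL9: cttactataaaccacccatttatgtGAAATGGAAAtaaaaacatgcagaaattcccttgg
CXCL10: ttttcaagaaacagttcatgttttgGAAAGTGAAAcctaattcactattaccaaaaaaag
GBP1: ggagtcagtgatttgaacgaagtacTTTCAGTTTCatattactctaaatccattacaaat
AIM2: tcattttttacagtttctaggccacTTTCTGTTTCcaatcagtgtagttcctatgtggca
IFIT1: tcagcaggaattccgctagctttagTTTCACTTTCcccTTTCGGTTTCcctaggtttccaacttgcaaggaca
IFIT3: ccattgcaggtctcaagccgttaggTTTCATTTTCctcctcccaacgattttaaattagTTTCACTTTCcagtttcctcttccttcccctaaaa

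In GRCh38.p14 these stretches lie at chr4:76007646-76007705 for CXCL9 and chr4:76023684-76023743 for CXCL10, both on the minus strand. Those of GBP1 and AIM2 lie at chr1:89065301-89065360 and chr1:159076922-159076981, also on the minus strand. The stretches of IFIT1 at chr10:89392482-89392554 and IFIT3 at chr10:89327816-89327909 lie on the plus strand and hold 2 matches each. All 6 end before the start that the promoter table uses, by 68 bases for IFIT1 up to 186 for CXCL10. For AIM2 that start lies inside the bounds RefSeq gives for the whole gene, so its stretch is upstream of an internal start only.

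Genes of the ribosome were split. The 33 tested ribosome biogenesis factors had a median of 0.12, with 13 intervals above 0, beside 20.6% of all genes tested, and 3 below, beside 19.6%. RRP12, which helps to export ribosomal subunits, had 688 reads in CTL+dox and 931 in gRNA2+dox (0.48, 0.34 to 0.62), and PES1, a factor of the large subunit, 2326 and 2811 (0.32, 0.24 to 0.40). Cytosolic ribosomal proteins leaned the other way, with 62 of 76 intervals below 0, 3 above and a median of -0.16, beside the same shares of all genes. RPLP1, a protein of the ribosomal stalk, had 4031 and 2899 reads (-0.43, -0.50 to -0.36), RPS12 had 3846 and 2860 (-0.38, -0.45 to -0.31) and RPL3 10618 and 8177 (-0.33, -0.38 to -0.29). None passed the cutoffs, and none of these shifts reached 1.5-fold. Many ribosomal protein genes have pseudogene copies, and the share of reads mapping to several places differed between the libraries (3.39% and 4.02%). The part of that difference in the shift was not tested. Host genes of small nucleolar RNAs had a median of -0.24 over 14 genes, with GAS5 at 2251 and 1648 reads (-0.41, -0.50 to -0.31).

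The p53 pathway had a median near 0. Of its 31 tested genes, 10 had an interval below 0, beside 19.6% of all genes tested, and 3 above, beside 20.6%. The median of 31 tested genes was -0.02, and CDKN1A, the cell cycle inhibitor p21, had 20121 reads in CTL+dox and 19464 in gRNA2+dox, a log2 fold change of 0.00. MDM2 had 1571 and 1500 reads (-0.02), and GADD45A 20329 and 19096 (-0.05). The only call of the 31, beside 0.980% of all genes tested that were lower past the cutoffs, was SPATA18, a mitochondrial quality gene. SPATA18 had 2 reads in CTL and 13 in CTL+dox, against 1 in gRNA2 and 0 in gRNA2+dox, where CTL+dox was the library apart. DNA damage response genes had a median of -0.13 and no call. ATF4 targets had a median of -0.12, with 20 of 30 intervals below 0 and 2 above. PSAT1, an enzyme of serine synthesis, was at 2916 and 1823 reads (-0.63, -0.72 to -0.55). Cholesterol and fatty acid synthesis genes had a median of -0.11, with 18 of 30 intervals below 0 and 4 above. ELOVL6, a fatty acid elongase, was lower past the cutoffs with 244 and 118 reads (-1.002, -1.33 to -0.68). It missed them with DESeq2 size factors (-0.998) or a prior count of 5 (-0.976).

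Beside 19.6% and 20.6% of all genes tested, 14 of 23 NRF2 targets had an interval below 0 and 5 above. These targets had a median of -0.10 without a call. They included FTH1, the heavy chain of ferritin, which stores iron and is also induced by cytokines, with 185379 reads in CTL and 235747 in CTL+dox, against 281328 in gRNA2 and 331740 in gRNA2+dox (0.54, 0.53 to 0.54). AKR1C1, a steroid and aldehyde reductase, had 2552 reads in CTL+dox and 1589 in gRNA2+dox (-0.64, -0.73 to -0.55). Heat shock and chaperone genes had a median of 0.00, and genes of mitochondrial ribosomes and respiration one of -0.09, where respiratory chain subunits stood at -0.18 and mitochondrial ribosomal proteins at -0.01.

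The same genes can be read without doxycycline, where gRNA2 and CTL share neither library with the main comparison. Of the 149 lower genes, 135 (90.6%) had a log2 ratio of gRNA2 to CTL below 0, beside 50.8% of all genes tested. The median of the 149 was -1.93 with the drug, the value they were chosen by, and -0.83 without it, so the gap between the medians is in part set by the choice. Both control libraries were above both gRNA2 libraries in 134 of the 149, beside 23.2% of all genes tested, and the order of the libraries with the drug was fixed by the choice. Of the 62 genes (0.408% of those tested) lower past the cutoffs in gRNA2 against CTL, 29 were among the 149, which is 46.8% of the 62 and 19.5% of the 149.

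Of the higher genes, 51 of 69 (73.9%) had a log2 ratio of gRNA2 to CTL above 0, beside 49.2% of all genes tested, with a median of 0.31. With the drug, where they were chosen, it was 1.84. In 49 of 69 both gRNA2 libraries were above both controls, beside 22.2% of all genes tested, and 63 were highest in gRNA2+dox, counts that the choice also in part sets. Of the 16 genes (0.105% of those tested) higher past the cutoffs in gRNA2 against CTL, 2 were among the 69. The 6 genes of the 69 that were not highest in gRNA2+dox, named for that reason, were CPPED1, PNCK, MUC4, LINC01393, PDXDC2P and LRRC39. CPPED1, for one, had 19 reads in CTL and 10 in CTL+dox, against 95 in gRNA2 and 49 in gRNA2+dox. Without the drug, 95 of the 149 lower genes had an interval below 0 and 1 above. Of the 69 higher genes, 17 had an interval above 0 and 1 below. Over all 15204 genes tested, 2299 were below and 2383 above. The ratio without the drug thus had the same sign for most of these genes, but for most higher genes its interval held 0. What the guide's induction added and what the pools carried before cannot be told apart from the main ratio alone.

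**Figure D4:**
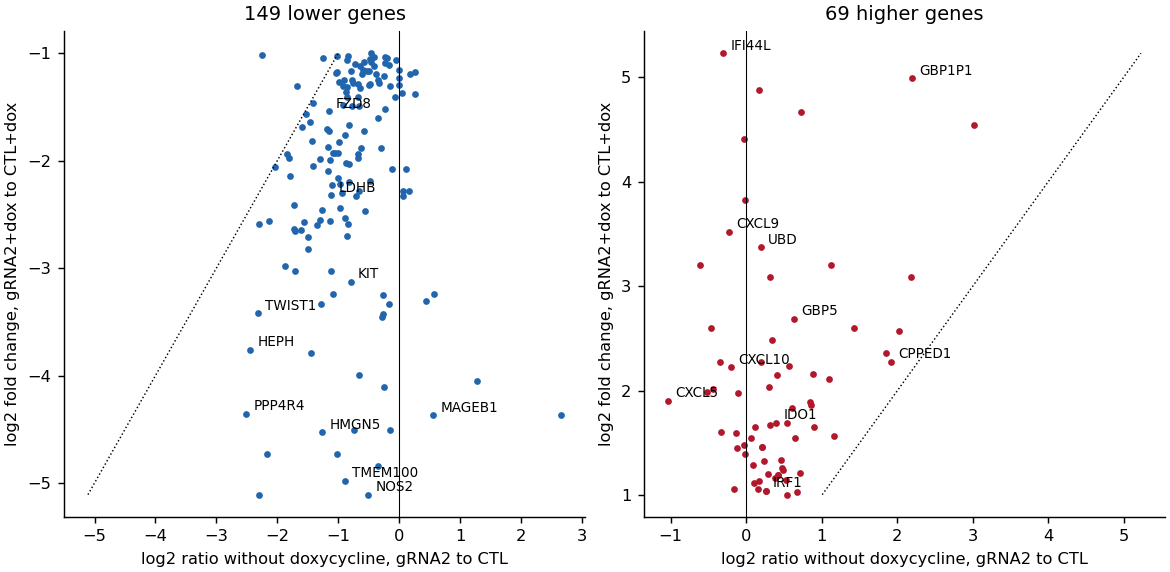
Log2 fold change of gRNA2+dox to CTL+dox against the log2 ratio of gRNA2 to CTL for the 149 lower genes (left) and the 69 higher genes (right). The dotted line marks equal values and the vertical line 0. Of the lower genes 135 lie left of 0 and 145 are smaller in size without the drug, and of the higher genes 51 lie right of 0.

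By position, the X chromosome held 16 lower genes of 490 tested (3.27%), beside 130 of 14378 (0.904%) on the other chromosomes, and 1 higher gene, PNCK. The 16 include HEPH, HMGN5, TMEM47, RNF128 and KLHL34, which are 5 of the 12 lower genes with the largest bounds. The median log2 fold change of all tested X genes was -0.02, close to that of all other chromosomes together, 0.00. Chromosome 13 held 9 lower genes of 261 (3.45%), among them CLDN10 and GJB2, and no higher gene. The median log2 fold change of all tested chromosome 13 genes was -0.09. Chromosomes 8 and 4 held 11 lower genes of 467 (2.36%) and 11 of 524 (2.10%). The higher genes on chromosome 1 were 14 of 1581 (0.886%) and included GBP1, GBP2, GBP4, GBP5, GBP7 and GBP1P1, which lie in 1 cluster.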

How the data were processed

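The 4 libraries were mapped to groups by their titles. The authors used fastp to cut adaptors and STAR to map and count, and the deposited counts are whole reads per gene symbol without normalization. The submitters' processing notes name hg38. The unstranded column was used, since the libraries do not mark strand (first strand 49.0% to 49.1%), so overlapping and antisense genes cannot be told apart. The 4 rows of unassigned reads were left out of library sizes.

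Counts were scaled by TMM in edgeR 4.0.16 (R 4.3.3). Of 26475 genes, 15204 entered the tests because 1 or more libraries held 10 counts or more, so a gene can enter through a single library. A prior count of 0.5 entered each log2 fold change. The bound stands in for GFOLD, which the study used: each count was given Poisson error, and the quantile (1% or 99%) of the log2 ratio nearest to 0 was taken. Cutoffs were 1 for the log2 fold change and 0.5 for the bound. For each pair, an exact 95% interval (Clopper-Pearson) was taken from the reads (Python 3.11.15, numpy 2.4.6, scipy 1.17.1), and 3 counts were taken as the floor. The script was tested on simulated data. Depth differed by less than 1.5-fold, so a gene's own reads set its precision.

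Named genes were TCOF1, KIT, FZD8 and NOS2, the 12 with the largest bound and the 8 with the highest mean CPM in each direction, list members past the cutoffs, up to 4 further members a list and members named for their role. Some genes that this rule names are not reported here. The members and lists were chosen with earlier results of these data known. Gene positions and promoters come from RefSeq GRCh38.p14, which placed 97.8% of the tested genes. Other settings tried were size factors of DESeq2 1.42.0, scaling by total counts, other filters, a prior count of 5, other bounds and added variation between cultures.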

Additional observations from a re-analysis of the deposited data

Results flagged for a closer look

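CXCL5 went in opposite directions with and without doxycycline. Its log2 ratio of gRNA2 to CTL was -1.04 without the drug (interval -1.74 to -0.39, 32 and 51 reads), and its log2 fold change from CTL+dox to gRNA2+dox was 1.91 (136 and 37 reads). With 1 library a condition, the difference was not tested.

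Reads outside annotated genes, which enter no comparison, made up 12.5% of the gRNA2+dox library, against 10.6% in CTL+dox, 10.8% in CTL and 11.3% in gRNA2. What they map to was not tested.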

How the results depend on the processing

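No paired analysis was possible because there is a single library of each condition, which also means that none could be left out. The counts of 149 lower and 69 higher genes changed with the bound, the filter and any variation added between cultures. A filter of at least 50 counts left 97 lower and 42 higher genes, because fewer genes were tested. A bound at the 5% quantile gave 246 and 130, and the log2 fold change alone gave 481 and 297. An added coefficient of variation between cultures of 0.1 left 89 and 48, and one of 0.2 left 50 and 20. The other settings kept the counts within 1.5 times, at 145 to 158 lower and 66 to 71 higher genes. Each stricter set held only genes of the main set. TCOF1 and the other genes named by rule kept their direction under DESeq2 size factors, total counts and a prior count of 5. Of those past the cutoffs, these settings lost only ELOVL6, at -0.998 with DESeq2 size factors and -0.976 with a prior count of 5. The added coefficient of variation of 0.2 lost more of the named calls. Among those that no longer passed were FZD8, NOS2, DLGAP5, KIF20A, IRF1, BATF2, CIITA and CD74. KIT, GBP1, GBP4, GBP5, CXCL9, CXCL10 and IDO1 still passed. List medians within 0.02 of 0 (heat shock, receptor kinases, the WNT to TGF-beta list, keratins) changed sign under total counts, DESeq2 size factors or the filter of 50 counts. So did the medians of fibroblast and endothelial markers (-0.19 to 0.29) and hormone receptor markers (0.40 to -0.08) under that filter. Genes with 3 or fewer reads in a library are limited by depth, and their fold changes by the prior count.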
